A study of Mus musculus with 12 samples.

Results

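The genes described here encode sensors of double-stranded RNA, the adaptors that relay their signal and the kinases and transcription factor on which the adaptors converge. The list was given by name and held 9 genes: Rigi (RIG-I, Ddx58 in older annotation), Ifih1 (MDA5), Tlr3, Mavs, Ticam1 (TRIF), Tbk1, Ikbke (IKK epsilon), Traf3 and Irf3. Of these, 8 had a row in each of the 3 deposited expression tables, which together covered 12484 genes. Ifih1 had no row in the shCTR9, shCDC73 or shMYC table under its symbol or its Entrez identifier and was not analysed here.

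RNA was sequenced from 12 libraries of KPC cells, a pancreatic ductal adenocarcinoma line derived from a mouse tumour. Each cell line carried a doxycycline-inducible shRNA, against luciferase (shLuciferase, the control), Ctr9 (shCTR9), Cdc73 (shCDC73) or Myc (shMYC), with 3 libraries a line, and all 4 lines received doxycycline at 1 µg/ml for 48 h. CTR9 and CDC73 are subunits of PAF1c, a complex that accompanies elongating RNA polymerase II, and MYC is a transcription factor whose depletion the study set beside that of PAF1c. The lines were made by lentiviral transduction, and the shMYC line was taken over from earlier work, so that the shRNA and the history of a line cannot be told apart.

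Cells detect double-stranded RNA in the cytosol through RIG-I and MDA5, which signal through MAVS on mitochondria, and in endosomes through TLR3, which signals through TRIF. Both routes recruit TRAF3 and activate the kinases TBK1 and IKK epsilon, which phosphorylate IRF3, and phosphorylated IRF3 enters the nucleus and induces type I interferon. In the literature on interferon responses, Rigi, Ifih1, Tlr3 and Ikbke are themselves inducible by interferon or NF-κB, while Tbk1, Traf3 and Irf3 are expressed broadly.

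The measure available was the mean expression of a gene in a table, in CPM (reads per 1000000 reads of a library), which the authors took over the 3 depleted and the 3 control libraries together. The deposited fold changes and p-values were not used, and with means alone neither a replicate error nor a test can be given for any value below. The tables do not give the depth of a library. Because the labels give 3 control libraries for the whole series, a difference between the means of a pair of tables was read as a difference between their depleted libraries, of which it shows a diluted form. That the authors used these same controls for every table, the shMYC table included, follows from the labels only and could not be checked on the means. The study describes its results of MYC depletion as earlier ones, so the shMYC table may rest on other controls, in which case neither the differences from the shMYC table nor the bounds on shMYC levels can be read in this way. A difference counted as past the threshold when it was at least 0.25 on the log2 scale.

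The tables matched their labels at the targeted genes. Mean Ctr9 was 16.5 CPM in the shCTR9 table, against 41.7 CPM in the shCDC73 and 25.0 CPM in the shMYC table. Mean Cdc73 was lowest in the shCDC73 table (21.9 CPM, against 41.2 and 37.3 CPM in the shCTR9 and shMYC tables), and mean Myc was lowest in the shMYC table (118 CPM, against 155 and 178 CPM in the shCTR9 and shCDC73 tables). Epithelial keratins were abundant, with Krt8 at 2779 to 3929 CPM and Krt19 at 1454 to 2123 CPM, but of the 8 epithelial markers listed Epcam and Cldn4 had no row in any table. Krt7 had 243 CPM in the shCTR9 and 109 CPM in the shMYC table and no row in the shCDC73 table. Why this row is missing is not known, so that the lack of a row cannot be read as a lack of expression. Of the 14 leukocyte markers listed, Cd68 alone had a row (2.58 to 4.22 CPM) and Ptprc had none. Of 8 fibroblast and stellate markers Pdgfra alone had a row, in the shCDC73 and shMYC tables (1.81 and 1.28 CPM), and of 6 endothelial markers none did. Cd68 had 3.08, 4.22 and 2.58 CPM in the shCTR9, shCDC73 and shMYC tables, and a part of leukocytes in the results was not tested. The epithelial transcription factor gene Sox9 had 3.56 CPM in the shMYC table against 12.7 and 18.5 CPM in the shCTR9 and shCDC73 tables, and its part in the results was not tested. The median gene was 0.12 higher on the log2 scale in the shMYC than in the shCTR9 table and 0.15 higher than in the shCDC73 table, and differences of the sensing genes are therefore also given relative to these medians.

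The promoters of 4 members are shown because the data divided them, Rigi and Tlr3 differing strongly between tables, Ticam1 less and Tbk1 hardly. All 4 hold a motif match. Ikbke, which also differed strongly, holds none, and Traf3, which differed little, holds an NF-κB match, and neither is shown. A link between motifs and levels was not tested. Each sequence is from RefSeq on GRCm38.p6, reads 5′ to 3′ on the strand of the gene and covers 250 bases before to 50 bases after the annotated start. For Tlr3 the window lies inside the RefSeq span of the gene, which reaches to base 45411075. Capitals mark a match on either strand to the E-box CACGTG bound by MYC and MAX, to the core of sites for interferon regulatory factors (GAAA, any 2 bases, GAAA), or to the consensus NF-κB site. The sequences lie at chr4:40239776-40240075 (minus strand) for Rigi, chr8:45410331-45410630 (minus strand) for Tlr3, chr17:56276718-56277017 (minus strand) for Ticam1 and chr10:121586745-121587044 (minus strand) for Tbk1.
Rigi: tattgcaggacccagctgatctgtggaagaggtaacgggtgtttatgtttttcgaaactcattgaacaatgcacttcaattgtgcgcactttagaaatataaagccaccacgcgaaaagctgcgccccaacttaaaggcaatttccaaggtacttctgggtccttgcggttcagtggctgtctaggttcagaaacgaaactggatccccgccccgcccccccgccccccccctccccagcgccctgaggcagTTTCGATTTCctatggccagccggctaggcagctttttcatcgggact
Tlr3: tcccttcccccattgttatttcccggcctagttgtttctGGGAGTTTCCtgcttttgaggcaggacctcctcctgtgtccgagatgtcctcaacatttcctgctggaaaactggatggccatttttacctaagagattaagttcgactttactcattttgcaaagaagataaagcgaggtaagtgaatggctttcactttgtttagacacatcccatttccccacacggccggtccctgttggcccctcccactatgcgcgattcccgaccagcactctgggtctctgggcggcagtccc
Ticam1: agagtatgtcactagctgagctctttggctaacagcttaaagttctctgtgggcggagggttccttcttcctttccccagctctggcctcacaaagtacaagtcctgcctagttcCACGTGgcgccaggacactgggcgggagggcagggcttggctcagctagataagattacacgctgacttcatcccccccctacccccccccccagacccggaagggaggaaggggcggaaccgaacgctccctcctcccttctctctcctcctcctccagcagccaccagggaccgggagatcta
Tbk1: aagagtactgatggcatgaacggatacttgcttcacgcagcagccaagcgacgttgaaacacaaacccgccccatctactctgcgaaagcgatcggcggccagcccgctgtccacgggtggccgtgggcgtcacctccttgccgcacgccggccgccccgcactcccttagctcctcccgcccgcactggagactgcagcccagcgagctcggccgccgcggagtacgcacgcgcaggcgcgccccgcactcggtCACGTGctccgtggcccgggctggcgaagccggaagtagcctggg

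Among all 9 promoters, which all matched an entry, the E-box was found in Ticam1 and Tbk1, against 7.15% of 32851 promoters of the table. The interferon regulatory factor core was found in Rigi and Ifih1, against 3.44% of promoters, and the NF-κB consensus in Tlr3 and Traf3, against 8.46%. No match to any of the motifs lay in the windows of Mavs, Ikbke or Irf3. Each window with a match held 1 match, which describes the letters of that window only.

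Per kilobase of exon, the transcription factor and the adaptors were the most abundant members and the sensors the least. The length used was that of all annotated exons of a gene, joined over its transcripts. It can exceed the length of the mRNA expressed in these cells, so that levels are only roughly comparable between genes. Irf3 had 12.1 CPM per kilobase in the shCTR9 table, at percentile 65.4 of all genes with an exon length, and Mavs had 9.26, Ticam1 7.64, Traf3 7.32 and Tbk1 5.21 CPM per kilobase. Ikbke had 0.828 CPM per kilobase (percentile 11.4), Rigi 0.311 (percentile 3.1) and Tlr3 0.269 (percentile 2.4). The low sensors and the inducible kinase therefore formed a group apart from the other 5 genes in this table. In the shMYC table the order ran from Irf3 (15.3 CPM per kilobase) over Mavs (14.3), Ticam1 (9.90), Traf3 (8.83), Tbk1 (5.50), Ikbke (2.55) and Rigi (1.03) to Tlr3 (0.778). The order of Tbk1 and Ikbke in the shMYC table rests on their exon lengths (3910 and 9018 bases). Before division by length, Ikbke had 23.0 CPM there and Tbk1 21.5 CPM. Without values per library it cannot be said which neighbours in this order differ beyond their spread.

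All 8 genes had their highest mean in the shMYC table, as did 52.0% of the 11591 genes with a row in all 3 tables. By size they divided into 3 genes whose highest mean was at least 2.89 times the lowest (Rigi, Tlr3 and Ikbke), 2 adaptor genes with an intermediate difference (Mavs and Ticam1) and 3 genes with a small difference (Tbk1, Traf3 and Irf3). Against the shCTR9 table alone, Ticam1 (0.37 on the log2 scale, percentile 72.8) lay close to Irf3 (0.34, percentile 70.1).

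**Figure D1:**
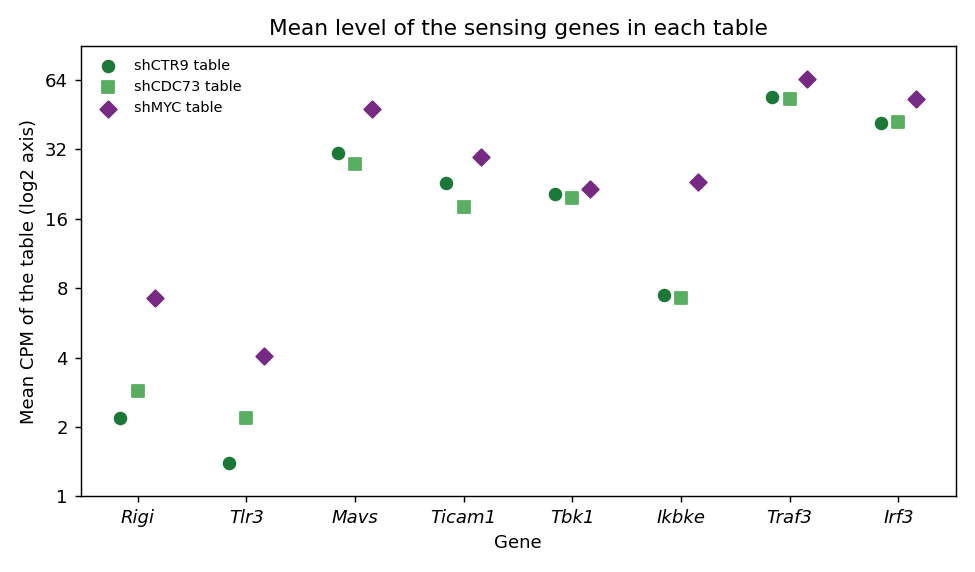
Mean CPM of each gene (vertical axis, log2 scale) in the shCTR9, shCDC73 and shMYC tables, each point being the authors' mean over depleted and control libraries, with no error available. The shMYC point is the highest for every gene, far apart for Rigi, Tlr3 and Ikbke and close to the others for Tbk1 (19.7 to 21.5 CPM).

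Against the shCTR9 table, 7 of the 8 genes were higher in the shMYC table by at least 0.25 and none was lower, where 37.5% of 11723 genes were higher and 16.2% lower. Against the shCDC73 table, again 7 of 8 were higher and none lower, where 41.5% of 11788 genes were higher and 20.0% lower. The median difference of the 8 genes was 0.50 on the log2 scale from the shCTR9 and 0.75 from the shCDC73 table, beside 0.12 and 0.15 over all genes. Relative to these medians of all genes, 5 of 8 were past the threshold in either comparison (Rigi, Tlr3, Mavs, Ticam1 and Ikbke), all of them higher. The shares of all genes were then 27.3% higher and 25.6% lower against the shCTR9 table, and 29.5% and 29.8% against the shCDC73 table. Both comparisons use the shMYC table and, if the labels hold for every table, the same control libraries, so that they are not independent of each other.

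Rigi, the gene of the cytosolic sensor RIG-I (chromosome 4, 36.0 kb), had a mean of 2.19 CPM in the shCTR9, 2.86 CPM in the shCDC73 and 7.28 CPM in the shMYC table. The shMYC mean stood above both PAF1c tables, by 1.73 and 1.35 on the log2 scale, differences exceeded by few genes (percentiles 99.1 and 98.0 of all genes). Tlr3, the endosomal sensor gene (chromosome 8, 15.4 kb), had 1.40, 2.18 and 4.05 CPM in the same order of tables. Its mean in the shMYC table was thus 1.53 above the shCTR9 and 0.90 above the shCDC73 mean on the log2 scale (percentiles 98.8 and 92.9). For both sensors the shCTR9 mean was also below the shCDC73 mean, by 0.38 for Rigi and 0.63 for Tlr3.

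The adaptors of these sensors were more abundant and differed less. Mavs (chromosome 2, 14.0 kb) had 31.0 CPM in the shCTR9, 27.7 CPM in the shCDC73 and 47.7 CPM in the shMYC table. Its shMYC mean exceeded the others by 0.62 and 0.78 on the log2 scale (percentiles 86.7 and 90.1). Ticam1, the adaptor gene of TLR3 (chromosome 17, 7.3 kb), had 22.9, 18.0 and 29.6 CPM, and its shMYC mean was 0.37 above the shCTR9 and 0.72 above the shCDC73 mean on the log2 scale. Traf3, the ubiquitin ligase gene downstream of both adaptors and at 100.8 kb the longest of the genes (chromosome 12), had 53.8, 53.0 and 64.9 CPM. These differences of 0.27 and 0.29 on the log2 scale lay at percentiles 64.3 and 61.8 of all genes and were 0.15 and 0.14 relative to the median gene, within the threshold.

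The kinase genes of the pathway went apart. Ikbke (chromosome 1, 25.0 kb) had 7.46 CPM in the shCTR9, 7.23 CPM in the shCDC73 and 23.0 CPM in the shMYC table, so that the PAF1c tables were nearly level and the shMYC mean was 1.62 and 1.67 above them on the log2 scale (percentile 99.0 in either comparison). Tbk1 (chromosome 10, 40.3 kb), which encodes the related kinase, had 20.4, 19.7 and 21.5 CPM. Its shMYC mean was 0.08 and 0.13 above the others on the log2 scale, and relative to the median of all genes the differences turned to −0.04 and −0.03, at percentiles 45.7 and 47.7. Irf3, the substrate gene of both kinases (chromosome 7, 5.2 kb), had 41.6, 42.1 and 52.7 CPM, with differences of 0.34 and 0.32, or 0.22 and 0.17 relative to the median gene, within the threshold.

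**Figure D2:**
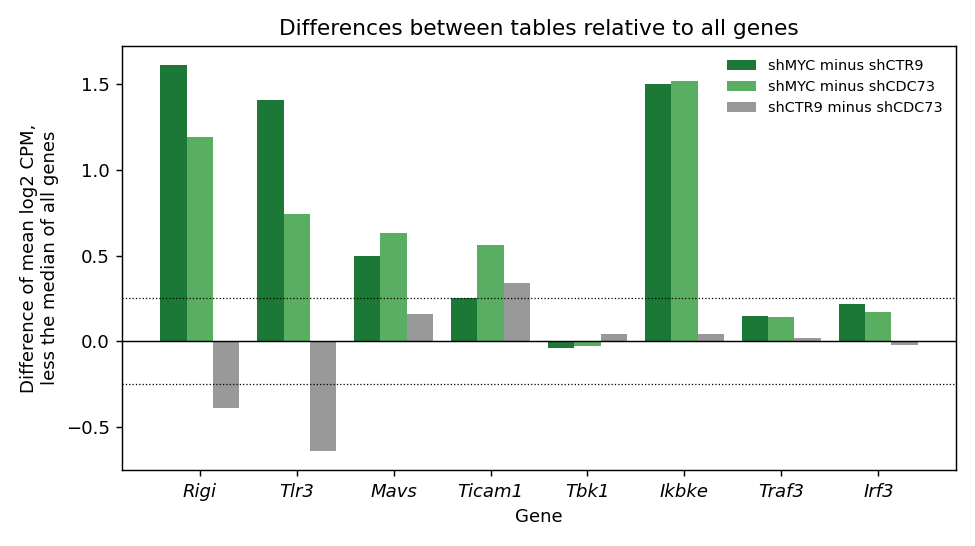
Difference of mean log2 CPM between tables, less the median difference of all genes (vertical axis), for each gene and each pair of tables. Dotted lines mark 0.25 in either direction, and Rigi, Tlr3, Mavs, Ticam1 and Ikbke reach it in both comparisons with the shMYC table while Tbk1 lies at −0.04 and −0.03.

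The tables of the PAF1c subunits differed from each other in fewer of these genes. In the shCTR9 table Ticam1 was higher than in the shCDC73 table by 0.34 on the log2 scale, Rigi and Tlr3 were lower by 0.38 and 0.63, and the other 5 genes lay within 0.25 (from −0.02 for Irf3 to 0.16 for Mavs). Over all genes 19.7% were higher and 17.9% lower by this threshold, so that 1 and 2 of 8 are near the background. The median difference of the 8 genes was 0.03.

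The means also limit the levels in control and depleted cells. With the same control in all tables and equal weights for control and depleted libraries, the control level of a gene cannot exceed 2 times its lowest mean, and the level in MYC-depleted cells cannot be below 2 times the distance of the shMYC mean from that lowest mean. For Rigi, control cells had at most 4.39 CPM and MYC-depleted cells 10.2 to 14.6 CPM, which is at least 2.32-fold higher. For Ikbke the control was at most 14.5 CPM and the level after MYC depletion 31.6 to 46.0 CPM, at least 2.18-fold higher. For Tlr3 the limits were 2.80 CPM and 5.30 to 8.10 CPM, at least 1.89-fold higher. When each table was first centred on its median, an alternative chosen after the data had been seen, these bounds were 1.88 for Rigi, 1.72 for Ikbke and 1.51 for Tlr3.

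For Rigi, Ikbke and Tlr3, therefore, the level after MYC depletion was above any control level that the means allow, and the same held for 6.38% of the 11591 genes with a row in all tables. For Mavs, Ticam1, Tbk1, Traf3 and Irf3 the ranges overlapped, and no direction against the control follows from the means. None of the 8 genes had a level after CTR9 or CDC73 depletion that must exceed the control, which held for 1.27% and 2.52% of all genes. After CTR9 depletion Rigi could not exceed 4.39 CPM, Tlr3 2.80 CPM and Ikbke 14.9 CPM. A level below the control cannot be bounded in this way, so that a decrease of any member after either PAF1c depletion was not detectable. Nor was a rise shared by CTR9 and CDC73 depletion detectable, because the lowest mean of each member was in the shCTR9 or shCDC73 table. The lack of such a bound is therefore no evidence of an unchanged level. In bulk RNA, a change in every cell and a change in a few cells cannot be told apart.

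**Figure D3:**
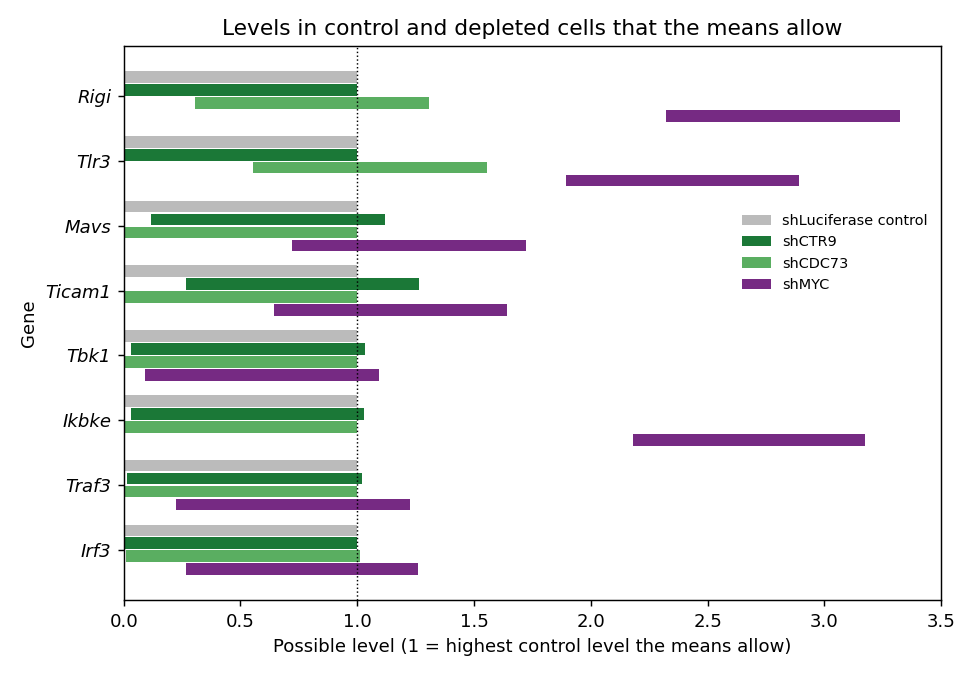
Range of levels in shLuciferase control and depleted cells that the 3 means of a gene allow (horizontal axis, as a multiple of the highest possible control level, dotted line). The shMYC range lies wholly above the control range for Rigi (from 2.32), Ikbke (from 2.18) and Tlr3 (from 1.89) and overlaps it for the other 5 genes.

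Depleted levels could also be set against each other, in CPM and not as amounts of mRNA per cell. With shared controls and equal weights, Rigi in MYC-depleted cells was at least 3.32-fold its level in CTR9-depleted cells. It was at least 2.54-fold its level in CDC73-depleted cells. The same limits were 3.08-fold and 3.18-fold for Ikbke, 2.89-fold and 1.86-fold for Tlr3, and 1.54-fold and 1.72-fold for Mavs. For Tbk1 the limits of 1.06-fold and 1.09-fold came with an absolute difference of 2.29 and 3.60 CPM between depleted cells. These limits were not centred on the median gene, relative to which the Tbk1 differences were −0.04 and −0.03.

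Other genes of nucleic acid sensing were taken from 6 lists with 96 genes. Dak, an inhibitor in these lists, matched no Entrez identifier and may have a row under another symbol. Of the 96 genes, 71 had a row under the symbols used. Both tables compared held a row for 70 of these genes. In the shMYC table, 30 were higher and 11 lower than in the shCTR9 table (37.5% and 16.2% of all genes). Against the shCDC73 table, 29 were higher and 14 lower (41.5% and 20.0% of all genes). The medians were 0.12 and 0.17 on the log2 scale, close to those of all genes. Where a gene is said to differ most in its list, the list was limited to genes of at least 1 CPM in both tables. The scaffolds, kinases and ligases around MAVS and TBK1 included 12 of 18 genes higher and 2 lower against the shCTR9 table (37.5% and 16.2% of all genes). Against the shCDC73 table, higher genes numbered 11 and lower genes 2 (41.5% and 20.0% of all genes), and the medians were 0.36 and 0.43. Ikbkg, the NEMO subunit gene of the IκB kinase, had 127 CPM in the shMYC table against 61.1 and 62.0 CPM in the shCTR9 and shCDC73 tables. Among the TBK1 adaptors, Tank had 14.9 CPM in the shMYC table against 10.9 and 9.85 CPM, and Azi2 42.9 CPM against 29.6 and 26.3 CPM, while Optn, an ubiquitin-binding partner of TBK1, was lower with 33.4 CPM against 48.5 and 51.8 CPM.

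Of 9 DNA sensing genes with a row, 3 were higher and 3 lower in the shMYC than in the shCTR9 table. Among all genes, 37.5% were higher and 16.2% lower. Against the shCDC73 table, 4 were higher and 2 lower (41.5% and 20.0% of all genes). Cgas, the cyclic GMP-AMP synthase gene, had 8.25, 7.73 and 6.86 CPM in the shCTR9, shCDC73 and shMYC tables, and Sting1, its downstream adaptor, 3.35, 2.70 and 3.17 CPM. Prkdc, the catalytic subunit gene of DNA-dependent protein kinase, had 4.24, 4.41 and 8.48 CPM, the largest difference of the list from either PAF1c table. Ifi204, an interferon-inducible gene, had 2.38, 3.22 and 4.16 CPM, the same order of tables as Rigi.

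Among the other RNA sensors and cofactors, 4 of 14 were higher and 1 lower in the shMYC than in the shCTR9 table (37.5% and 16.2% of all genes). In the comparison with the shCDC73 table, 3 were higher and 2 lower (41.5% and 20.0% of all genes). Prkra, an activator gene of the RNA-dependent kinase PKR, differed most, with 28.4 CPM in the shMYC table against 14.7 and 15.0 CPM. Rnf135, the gene of a ubiquitin ligase for RIG-I, had 7.64 CPM against 4.88 and 4.56 CPM, and Trim25, another ligase gene linked to RIG-I, had 93.9 CPM against 95.6 and 90.7 CPM. Ddx1 differed most between the PAF1c tables, with 149 CPM in the shCTR9 and 111 CPM in the shCDC73 table. Of 8 Toll-like receptor list genes, 3 were higher and 1 lower in the shMYC than the shCTR9 table (37.5% and 16.2% of all genes). Against the shCDC73 table, 4 were higher and 1 lower (41.5% and 20.0% of all genes). Irak4, a kinase gene downstream of MYD88, had 25.5 CPM against 17.3 and 13.9 CPM, whereas Myd88 itself had 42.9 CPM against 46.4 and 47.0 CPM. Tlr2 differed most between the PAF1c tables, with 2.01 CPM in the shCTR9 and 2.82 CPM in the shCDC73 table.

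Of the interferon regulatory factors other than Irf3, those with a row were Irf1, Irf2 and Irf9. In the shMYC table Irf2 had 31.2 CPM against 23.5 and 21.2 CPM in the shCTR9 and shCDC73 tables, Irf9 9.48 CPM against 6.42 and 8.44 CPM, and Irf1 28.6 CPM against 30.4 and 39.6 CPM. Inhibitors of sensing with a row numbered 18. In the shMYC table, 6 were higher and 4 lower than in the shCTR9 table (37.5% and 16.2% of all genes). Against the shCDC73 table, 6 were higher and 6 lower (41.5% and 20.0% of all genes). Tnfaip3, the NF-κB-inducible gene of the deubiquitinase A20, had 75.9 CPM in the shMYC table against 27.1 and 36.9 CPM, a difference of 1.48 and 1.04 on the log2 scale. The RNase H2 subunit gene Rnaseh2c was lower, with 100 CPM against 159 and 144 CPM. Among those of at least 1 CPM, Nlrx1 differed most between the PAF1c tables, with 1.43 CPM in the shCTR9 and 2.49 CPM in the shCDC73 table, and Sharpin, of the linear ubiquitin ligase complex, had 42.7 and 30.5 CPM.

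**Figure D4:**
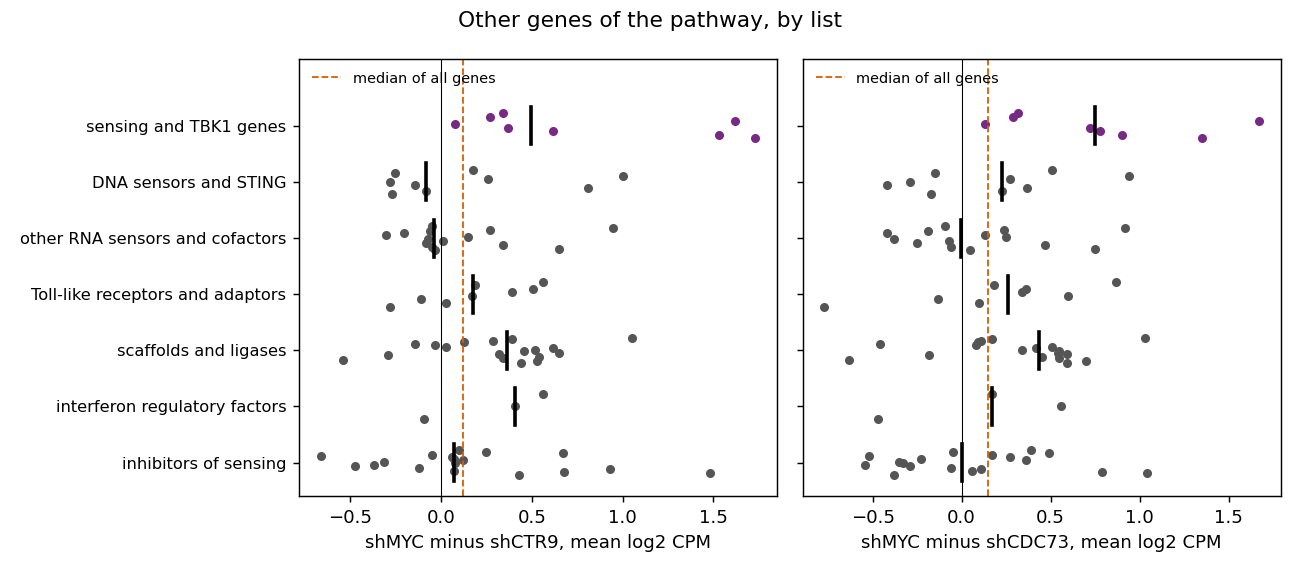
Difference of mean log2 CPM (horizontal axis) of the shMYC table from the shCTR9 table (left) and from the shCDC73 table (right), with a point for each gene, a black bar for the median of each list and a dashed line for the median of all genes (0.12 and 0.15). The sensing and TBK1 genes have medians of 0.50 and 0.75, above those of the other lists in both panels.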

How the data were processed

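Poly(A) RNA of 12 libraries was made into strand-specific libraries. Alignment by the authors was to the mm10 assembly, by Bowtie 2 (2.3.4.1), which places no read across an exon junction as a split alignment. They then scaled the samples to the smallest library, assigned reads to genes by featureCounts and dropped genes under 5 reads before fitting a count model. Which annotation and which strand option featureCounts was given is not given in the sources used here, and Ikbke, Traf3 and Ifih1 overlap other annotated genes. The authors' deposited tables (11982 genes for shCTR9, 12128 for shCDC73, 12100 for shMYC) hold a mean log2 CPM over the libraries of a comparison, used here, and their fold change, likelihood ratio, p-value and adjusted p-value against shLuciferase, which were not used.

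Means were returned to CPM, where they summed to 999965 to 1005680 per table, close to 1000000, as averages of CPM do. Tables were compared by the difference of mean log2 CPM with a threshold of 0.25, with 0.1 and 0.5, centring on the median gene and a minimum of 1 CPM as alternatives. Bounds assume equal weights and shared controls, and do not hold if the shMYC table had other controls. No test was run. The authors' mean may include a small prior count, which draws ratios of low genes towards 1. Exon lengths are from GENCODE M21 (GRCm38, the assembly of mm10), joined for 91.3% to 91.6% of genes, and spans and promoters from RefSeq on GRCm38.p6. The named genes were all members, the shRNA targets and, per list and pair of tables, the gene of at least 1 CPM with the largest difference. Genes beyond these (Tank, Azi2, Optn, Cgas, Sting1, Ifi204 against the shMYC table, Rnf135, Trim25, Myd88, Irf1, Rnaseh2c and the cell type markers) were chosen after their values were seen. The members and lists were chosen with earlier results of these data known. Python 3.11.15 with numpy 2.4.6, pandas 2.3.3 and matplotlib 3.10.9 was used, and calculations were tested on simulated data.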

Additional observations from a re-analysis of the deposited data

How the results depend on the processing

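The count of the 8 genes past the threshold stayed within 1.5 times its value under a threshold of 0.1, under centring on the median of all genes and with a minimum of 1 CPM, in all 3 pairs of tables. With a threshold of 0.5 it was 4 for shMYC against shCTR9, where 19.2% of all genes were higher and 5.22% lower, 1 for shCTR9 against shCDC73, where 5.40% were higher and 6.70% lower, and 5 for shMYC against shCDC73, where 22.9% were higher and 8.31% lower. Centring lowered the median difference of the genes to 0.38 for shMYC against shCTR9 and 0.60 for shMYC against shCDC73, by construction, and turned the split of all genes from 37.5% higher and 16.2% lower to 27.3% and 25.6% for the first pair and from 41.5% and 20.0% to 29.5% and 29.8% for the second. None of the 24 differences of single genes that was past the threshold changed sign, while those of Tbk1, within the threshold, turned from 0.08 and 0.13 to −0.04 and −0.03 in the comparisons with the shMYC table. The number of genes whose level after MYC depletion exceeded the highest possible control level was 3 with and without centring. Leaving out a replicate was not possible on pooled means. No paired analysis was possible because the columns carry no replicate. The tables give no depth per library, and small differences such as that of Tbk1 cannot be resolved without a replicate error.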
